A study of Mus musculus with 17 samples.

Results

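The mRNAs of 10 circadian clock genes were examined in mouse lung: Clock, Npas2, Per1, Per2, Per3, Cry2, Ciart, Nr1d1, Nr1d2 and Dbp. They were chosen by their gene symbols from the 31245 genes of the count table, and each symbol was found once. All 10 passed the filter on low counts, a total of at least 20 counts over the libraries, which 26946 genes passed. The 17 libraries came from 6 groups of mice that differed in genotype and drinking water. WT mice were purchased Sv/129 mice. KO mice were PPARα null, and KI mice carried humanized PPARα, the human form of the nuclear receptor that senses fatty acids. KO and KI mice were bred from common pairs of PPARα-null and hPPARα heterozygous parents, so the comparison with purchased WT mice also compares breeding. From 6 weeks of age, all mice ate an American-style diet and drank water with 0.5% sucrose, without PFOA (vehicle) or with PFOA at 6.2 µg/mL, for 14 weeks. There were 3 libraries per group, but only 2 for WT vehicle. All 6 KO mice were female, whereas the WT and KI groups held both sexes. The hour at which the lungs were taken is not given in the sources used here.

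The mammalian clock is a feedback loop of transcription. CLOCK or its paralogue NPAS2 pairs with BMAL1 (gene Arntl) and activates genes through E-boxes in their promoters. Among these genes are the repressors Per1, Per2, Per3, Cry2 and Ciart, the nuclear receptors Nr1d1 and Nr1d2 (REV-ERBα and β), and Dbp, a transcription factor that drives further rhythmic genes through D-boxes. REV-ERBs in turn repress Arntl and Npas2. In a rhythmic tissue such as lung, Dbp and the REV-ERB genes therefore run roughly opposite to Arntl and Npas2 over the day, and the Per genes also respond to glucocorticoid hormone and other acute signals. For this reason the genes were read in 2 arms, a Dbp arm (Dbp, Nr1d1, Nr1d2, Per3, Ciart) and an Npas2 arm (Npas2, Clock).

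RefSeq promoter windows (GRCm38.p6, 250 bases before to 50 after the start) were found for 9 of the 10 genes, in 12 windows. No Per2 window was used. The windows were searched on both strands for the E-box CACGTG, the related E′-box CACGTT, the D-boxes TTATGTAA and TTACGTAA, the cores TAGGTCA and TGGGTCA of the REV-ERB and ROR element, and the cyclic AMP element TGACGTCA. The bases before the start are shown for the 4 repressor genes whose windows held a match and whose mRNA is followed below, 5′ to 3′ on the strand of the gene, with the matches in capitals.
Ciart, minus strand, chr3:95882229-95882478: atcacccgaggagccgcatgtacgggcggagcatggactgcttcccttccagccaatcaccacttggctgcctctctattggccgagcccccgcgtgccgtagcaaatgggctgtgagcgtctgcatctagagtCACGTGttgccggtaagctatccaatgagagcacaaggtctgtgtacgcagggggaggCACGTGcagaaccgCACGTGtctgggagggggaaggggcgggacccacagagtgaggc
Per1, plus strand, first of 2 starts, chr11:69098699-69098948: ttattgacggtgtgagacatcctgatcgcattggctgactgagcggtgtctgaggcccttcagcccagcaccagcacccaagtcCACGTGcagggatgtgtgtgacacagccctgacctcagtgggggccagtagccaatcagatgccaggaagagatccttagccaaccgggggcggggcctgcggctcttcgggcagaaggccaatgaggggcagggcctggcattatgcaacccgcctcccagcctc
Per3, minus strand, chr4:151044666-151044915: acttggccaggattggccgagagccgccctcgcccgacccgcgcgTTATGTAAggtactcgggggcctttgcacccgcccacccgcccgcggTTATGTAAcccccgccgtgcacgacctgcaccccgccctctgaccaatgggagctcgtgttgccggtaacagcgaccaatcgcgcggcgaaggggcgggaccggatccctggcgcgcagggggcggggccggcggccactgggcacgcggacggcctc
Cry2, minus strand, chr2:92434070-92434319: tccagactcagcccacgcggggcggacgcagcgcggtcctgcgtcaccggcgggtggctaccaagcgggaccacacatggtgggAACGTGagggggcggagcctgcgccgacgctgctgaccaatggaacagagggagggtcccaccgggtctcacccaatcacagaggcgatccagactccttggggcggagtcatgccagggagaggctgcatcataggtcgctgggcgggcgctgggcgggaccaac
The Ciart window held 3 E-boxes, beginning 116, 58 and 44 bases before the start. The Per1 window held 1 E-box, 166 bases before the start. The Per3 window held 2 D-boxes, 205 and 158 bases before the start, and no E-box. The Cry2 match was an E′-box on the other strand, which reads as AACGTG here. A further E′-box lay 28 bases before the start of Nr1d1, and no motif searched was found in the windows of Clock, Npas2, Dbp and Nr1d2. Of all 32851 windows, 7.15% held an E-box, 4.68% an E′-box, 0.938% the D-box TTATGTAA and 0.119% the D-box TTACGTAA. The 2 REV-ERB and ROR cores were found in 2.61% and 3.98% and the cyclic AMP element in 1.79%, in no window of these genes.

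The 17 libraries held 4116118 to 9237356 counts, so that 3 counts correspond to 0.325 to 0.729 CPM, counts scaled to a common library size. Protein-coding genes took 74.4 to 80.4% of the counts, except in the libraries of WT vehicle mouse 122 and KO vehicle mouse 137, in which the share went as low as 61.3%. Values without 1 or both of these libraries are given beside the results that they moved most. Markers of alveolar type 2 cells, the surfactant-making epithelium, summed to 2393 to 8100 CPM. Markers of cardiac muscle summed to 1808 to 6505 CPM in KI vehicle and to 189 to 5526 CPM in the other groups, while brown fat markers stayed between 1.01 and 48.8 CPM and liver markers at or below 4.61 CPM. Ppara, the targeted gene, was 5.47 ± 1.32 CPM (SD, n = 3) in WT PFOA and 6.67 ± 0.76 CPM (n = 2) in WT vehicle. It was 10.4 ± 1.3 and 10.1 ± 1.23 CPM in KO vehicle and KO PFOA (n = 3 each) and was thus not lower in the libraries labelled KO, which says nothing of a deletion within part of the gene. All 6 KO libraries (8.82 to 11.75 CPM) lay above all 5 WT libraries (4.39 to 7.21 CPM). The KO and WT libraries of 2.76% of all genes did not overlap, in either direction. In KI, Ppara was 14.6 ± 3.72 CPM (n = 6), from 9.08 to 20.4 CPM. In bulk lung, a changed number of cells of a type and a changed amount of RNA per cell cannot be told apart.

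Over all libraries, Nr1d1 was the most abundant of the 10 per kilobase of exon, with a mean of 46.5 ± 10.1 CPM per kilobase (SD, n = 17). Per1 (29.3 ± 10.7), Dbp (28.0 ± 10.4), Nr1d2 (22.9 ± 4.32), Per2 (20.2 ± 9.06), Cry2 (16 ± 3.34) and Per3 (12.95 ± 4.52) followed on that scale. Clock (8.74 ± 1.55), Ciart (5.56 ± 1.98) and Npas2 (0.871 ± 0.599) were lowest, and neighbours in this order from Per1 to Clock differed by less than the larger of their SDs, whereas Nr1d1, Ciart and Npas2 stood further apart. Npas2 rested on 8 to 104 reads per library. The variation between mice of one group was uneven. Within groups, the SD of log2 CPM was 0.67 for Npas2 and 0.53 for Dbp, against a median of 0.42 and 0.20 for genes of like level. Cry2 (0.16) was the steadiest, with a lower SD than its like-level median of 0.20, while Clock (0.29), Nr1d2 (0.31), Per1 (0.36), Nr1d1 (0.40), Per3 (0.40), Ciart (0.42) and Per2 (0.43) lay above theirs. Exons of Dbp share 539 bases with Sphk2 on the opposite strand, those of Nr1d1 share 263 bases with Thra and those of Cry2 share 295 bases with D930015M05Rik. Since the sources do not state whether counting used the strand, these 3 genes may carry reads of their neighbours.

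On average over both exposures, the repressors Per1, Per2, Per3, Cry2 and Ciart were lower in KO than in WT lung, and Npas2 was higher. Nr1d1 and Nr1d2, whose REV-ERB products also repress, did not pass an adjusted p of 0.2. On vehicle alone, Per3 (-0.49), Ciart (-0.39) and Npas2 (0.17) had unadjusted edgeR p of 0.113, 0.256 and 0.782. On PFOA the log2 fold changes of these 3 genes were -1.21, -1.11 and 2.40.
Per1 (chr11:69095217-69109960, plus strand) encodes PERIOD1, a repressor that is also induced by glucocorticoids. It was 197 and 255 CPM in WT vehicle, 191, 230.4 and 254 CPM in WT PFOA, 70.4, 77.85 and 132 CPM in KO vehicle, 84.8, 119 and 135 CPM in KO PFOA, 148, 191 and 215 CPM in KI vehicle, and 119, 161 and 219.8 CPM in KI PFOA. All 6 KO libraries lay below all 5 WT libraries, and the KI libraries overlapped both. The log2 fold change of KO against WT was -1.13 ± 0.18 (SE), or 2.18-fold lower (edgeR adjusted p = 0.00146, exact stratified permutation p = 0.01).
Cry2 (chr2:92403646-92434043, minus strand) encodes a cryptochrome that acts with the PER proteins. It was 112 and 152 CPM in WT vehicle, 115.5, 127 and 127 CPM in WT PFOA, 72.75, 84.0 and 95.4 CPM in KO vehicle, 76.7, 79.1 and 87.6 CPM in KO PFOA, 93.9, 94.55 and 112 CPM in KI vehicle, and 87.5, 96.1 and 105 CPM in KI PFOA. Again no KO library reached the lowest WT library, and the KI libraries overlapped KO and also stopped short of WT. The difference was smaller than that of Per1, with a log2 fold change of -0.63 ± 0.10 in KO (1.54-fold lower, edgeR adjusted p = 0.00146, exact stratified permutation p = 0.005, the smallest that this design can give).
Per2 (chr1:91415982-91459324, minus strand) was 112 and 273 CPM in WT vehicle, 136, 145.5 and 155 CPM in WT PFOA, 91.9, 93.15 and 128 CPM in KO vehicle, 46.35, 57.3 and 67.0 CPM in KO PFOA, 98.7, 140 and 156 CPM in KI vehicle, and 60.4, 122 and 124 CPM in KI PFOA. The 3 KO PFOA libraries and 1 KI PFOA library were the lowest, and the highest value came from WT vehicle mouse 122. KO was lower than WT by a log2 fold change of -1.13 ± 0.21 (2.18-fold, edgeR adjusted p = 0.0058, exact stratified permutation p = 0.015). The value was -1.04 without mice 122 and 137, and -0.95 without mouse 122 alone.
Per3 (chr4:151003652-151044665, minus strand) lies within the span of Camta1 on the same strand, with no shared exon. It was 133 and 215.5 CPM in WT vehicle, 132, 154 and 169.6 CPM in WT PFOA, 109, 121 and 141 CPM in KO vehicle, 57.7, 63.25 and 75.2 CPM in KO PFOA, 101, 121 and 173 CPM in KI vehicle, and 61.5, 138 and 149.6 CPM in KI PFOA. Here KO vehicle overlapped WT, while KO PFOA did not. Over both exposures the log2 fold change of KO against WT was -0.86 ± 0.21 (edgeR adjusted p = 0.0381, exact stratified permutation p = 0.015), short of the 2-fold used for a call.
Ciart (chr3:95878503-95882251, minus strand) encodes CHRONO, which blocks CLOCK and BMAL1. It was 14.0 and 20.6 CPM in WT vehicle, 14.4, 15.3 and 17.4 CPM in WT PFOA, 9.43, 9.92 and 20.96 CPM in KO vehicle, 4.93, 8.20 and 8.50 CPM in KO PFOA, 10.35, 10.4 and 14.0 CPM in KI vehicle, and 7.71, 12.9 and 14.5 CPM in KI PFOA. Apart from KO vehicle mouse 137, the KO libraries lay below every WT library. The log2 fold change was -0.75 ± 0.24 (edgeR adjusted p = 0.129, exact stratified permutation p = 0.03).

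**Figure D1:**
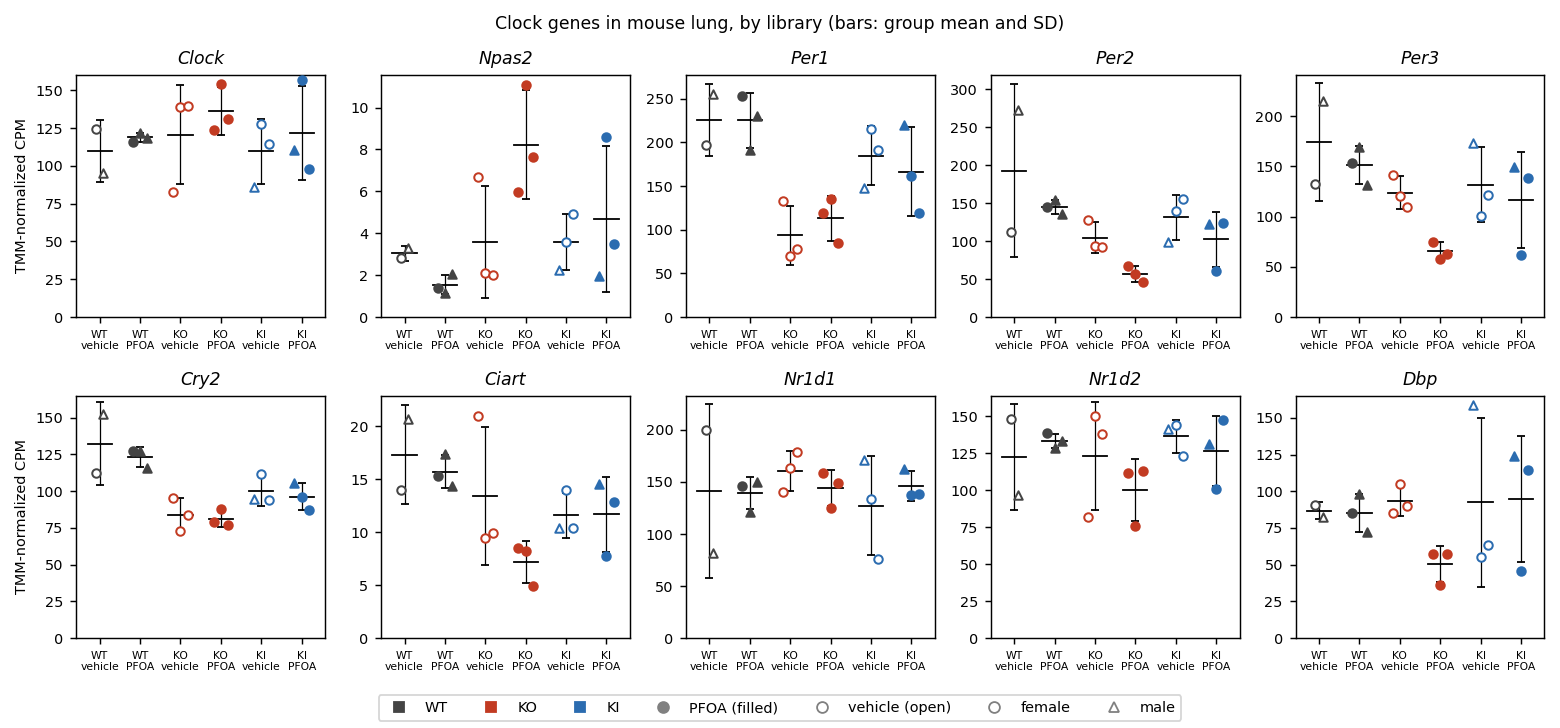
TMM-normalized CPM (y axis, linear, from 0) of each clock gene in each library, by group (x axis). Circles are female and triangles male mice, open symbols vehicle and filled symbols PFOA, with group means and SD as black bars. For Per1 and Cry2 the 6 KO libraries lie below the 5 WT libraries, and for Npas2 the highest value, 11.1 CPM, is a KO PFOA library.

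Among the activators, Npas2 (chr1:39193731-39363236, plus strand) moved the other way from Per1, Per2, Per3, Cry2 and Ciart. It was 2.80 and 3.28 CPM in WT vehicle, 1.17, 1.39 and 2.06 CPM in WT PFOA, 2.01, 2.11 and 6.68 CPM in KO vehicle, 5.98, 7.63 and 11.1 CPM in KO PFOA, 2.23, 3.56 and 4.92 CPM in KI vehicle, and 1.94, 3.49 and 8.61 CPM in KI PFOA. The 3 KO PFOA libraries, KO vehicle mouse 137 and KI PFOA mouse 80 held the 5 highest values. KO exceeded WT by a log2 fold change of 1.41 ± 0.45 (2.67-fold, edgeR adjusted p = 0.129, exact stratified permutation p = 0.05).
Clock (chr5:76209868-76304792, minus strand), its paralogue, was 95.2 and 124.5 CPM in WT vehicle, 116, 119 and 121.5 CPM in WT PFOA, 82.7, 139 and 139.9 CPM in KO vehicle, 124, 131 and 154 CPM in KO PFOA, 86.3, 114 and 128 CPM in KI vehicle, and 97.7, 110.3 and 157 CPM in KI PFOA. KO and WT overlapped, with a log2 fold change of 0.17 ± 0.15 (edgeR adjusted p = 0.7).

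The REV-ERB genes and Dbp overlapped between KO and WT over both exposures. Nr1d1 (chr11:98767932-98775333, minus strand) was 82.1 and 200.1 CPM in WT vehicle, 121, 146 and 150.2 CPM in WT PFOA, 140, 163 and 178 CPM in KO vehicle, 125, 149 and 159 CPM in KO PFOA, 76.3, 134 and 171 CPM in KI vehicle, and 137, 138 and 162.5 CPM in KI PFOA. Its extremes were both in vehicle lungs, and every group overlapped every other.
Nr1d2 (chr14:18204054-18239127, minus strand) was 97.1 and 148 CPM in WT vehicle, 128.5, 133 and 138.5 CPM in WT PFOA, 81.8, 138 and 150.3 CPM in KO vehicle, 75.8, 112 and 113 CPM in KO PFOA, 123, 142 and 144 CPM in KI vehicle, and 101, 131 and 148 CPM in KI PFOA. On PFOA the KO libraries lay below the WT libraries, on vehicle they did not.
Dbp (chr7:45705088-45710203, plus strand) was 82.7 and 91.0 CPM in WT vehicle, 72.5, 85.0 and 98.1 CPM in WT PFOA, 85.5, 90.2 and 105 CPM in KO vehicle, 36.1, 57.4 and 57.5 CPM in KO PFOA, 55.4, 63.3 and 159 CPM in KI vehicle, and 45.9, 114.5 and 124 CPM in KI PFOA. WT and KO vehicle libraries overlapped, the KO PFOA libraries were low, and the KI libraries ran from near the lowest to the highest value of the series. The log2 fold changes of KO against WT over both exposures were 0.12 ± 0.19 for Nr1d1, -0.23 ± 0.16 for Nr1d2 and -0.33 ± 0.28 for Dbp, with edgeR adjusted p of 0.862, 0.616 and 0.686. The sign of Nr1d1 turned (-0.00385) without mice 122 and 137, and in females alone (-0.17).

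Over both exposures, 3 of the 10 clock genes were called between KO and WT (Per1, Per2 and Npas2) where a call needs both a change of more than 2-fold and an edgeR adjusted p below 0.2, a rule that called 2.36% of all genes tested. At an adjusted p under 0.2 with any fold change, 6 of 10 were counted, 5 lower and 1 higher, where 5.85% of all genes were. The median log2 fold change of the 10 was -0.48, against 0.02 over all genes tested. The KO and WT libraries of 2 of the 10 did not overlap (Per1 and Cry2), nor did those of 2.76% of all genes. Beside these differences, 2 of 3 club cell markers, those of secretory airway cells, were lower in KO at an adjusted p under 0.2 (Scgb1a1 at -0.71 ± 0.25 and Cyp2f2 at -0.80 ± 0.22) and were called lower on vehicle (-1.25 ± 0.32 and -1.27 ± 0.30) but not on PFOA. The 3 summed to 11430 to 24860 CPM in WT vehicle and 7140 to 8052 CPM in KO vehicle, and to 6751 to 8632 CPM in WT PFOA and 4690 to 7167 CPM in KO PFOA. Of 4 fibroblast markers, Col1a1 was higher (0.56 ± 0.14), and of 3 liver markers, Alb was called higher, at a summed liver marker level of at most 4.61 CPM. The part of these markers in the clock values was not tested. DESeq2 called the same 3 genes. The Npas2 call was lost when any 1 of WT PFOA mice 50, 56 and 65 or KO PFOA mice 154 and 155 was left out (1.17 to 1.36). The Per2 call was lost without WT vehicle mouse 122 (-0.95, edgeR adjusted p = 0.0405). Because KO mice were all female, the fit was repeated with sex as a covariate and in females alone. Per1 was then the only clock gene called, at log2 fold changes of -1.10 (edgeR adjusted p = 0.0142) and -1.11 (edgeR adjusted p = 0.0875), and Cry2 stayed under an adjusted p of 0.2 at -0.57 and -0.53. Per2 remained under 0.2 with the sex covariate (-0.97, edgeR adjusted p = 0.0832) but not in females alone (-0.79, edgeR adjusted p = 0.378), and Npas2 passed in neither (0.98 and 1.34). The i5 adapter index of the libraries was also uneven between groups. With it as a covariate, Per2 alone was called (-1.08, edgeR adjusted p = 0.0759), and Per1 was at -0.89 (edgeR adjusted p = 0.0605).

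On vehicle, 1 clock gene was called between KO and WT, Per1, at -1.28 ± 0.28 (edgeR adjusted p = 0.0579), where 1.37% of all genes were called. The call was lost with the i5 index as a covariate (-0.85, edgeR adjusted p = 0.367), in females alone (-1.07, edgeR adjusted p = 0.762), with only these 2 groups in the fit (-1.23, edgeR adjusted p = 0.71) and without WT vehicle mouse 122 (-1.07, edgeR adjusted p = 0.614). Cry2 was at -0.66 ± 0.16 (edgeR adjusted p = 0.105), and at -0.41 without mouse 122, and Per2 at -0.89 ± 0.32 (edgeR adjusted p = 0.276). The Per2 value rested on WT vehicle mouse 122: without it the log2 fold change was -0.10, and without mouse 107, the other WT vehicle mouse, -1.39. Per1 and Cry2 were the 2 genes of the 10 whose KO and WT vehicle libraries did not overlap. Of all genes, 22.9% did not overlap here, so that the count of 2 in 10 was near this background. With 3 against 2 libraries an exact permutation test cannot go below p = 0.1.

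On PFOA, 4 of 10 clock genes were called between KO and WT, where 1.01% of all genes were, and in 9 of 10 the KO and WT libraries did not overlap, Nr1d1 being the exception. Of all genes, 18.4% did not overlap in this comparison. Npas2 was 5.29-fold higher in KO (log2 fold change 2.40 ± 0.53, edgeR adjusted p = 0.0516). Per2 was 2.55-fold lower (-1.35 ± 0.29, edgeR adjusted p = 0.0451), Per3 2.32-fold lower (-1.21 ± 0.27, edgeR adjusted p = 0.0548) and Ciart 2.16-fold lower (-1.11 ± 0.31, edgeR adjusted p = 0.158). Per1 at -0.99 ± 0.25 (edgeR adjusted p = 0.106) and Cry2 at -0.60 ± 0.15 (edgeR adjusted p = 0.0814) passed the adjusted p but not the fold. Dbp was at -0.76 ± 0.35 (edgeR adjusted p = 0.609). With sex as a covariate only Per2 was called, and in females alone, where 1 WT PFOA mouse was left, no clock gene was. Npas2 and Per3 were called when the i5 index was a covariate, while Per2 (-1.22, edgeR adjusted p = 0.389) and Ciart (-1.06, edgeR adjusted p = 0.608) were not. Per1 was then at -0.62 and Dbp at -1.35, against -0.43 for Dbp with the sex covariate. With RLE factors, filterByExpr or DESeq2, Per1 was called in addition, its log2 fold change passing just beyond -1. Leaving out 1 WT or KO PFOA mouse also took the number of calls to 1 (without WT mouse 56 or KO mouse 155) or 2 (without WT mouse 50 or KO mouse 154).

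PFOA against vehicle within a genotype gave no call for any clock gene, nor for any other gene by edgeR: 0% of genes were called in WT, in KO and in KI. At an unadjusted p under 0.05 stood 1981 genes in WT, 2639 in KO and 699 in KI, among them 0, 5 and 0 clock genes. DESeq2 on the same genes called 24, 68 and 1 genes, of which none was a clock gene. It gave 1 clock gene in KO a DESeq2 adjusted p under 0.2 (0.191), without a change of more than 2-fold. In KO, the log2 fold changes with PFOA that had an unadjusted p under 0.05 were those of Per3 (-0.92 ± 0.27, edgeR adjusted p = 0.469), Dbp (-0.90 ± 0.35), Per2 (-0.87 ± 0.29) and Ciart (-0.86 ± 0.31) and Npas2 (1.27 ± 0.50), with edgeR adjusted p of 0.473 to 0.483 for the last 4. For the 4 genes with negative values, the 3 KO PFOA libraries lay below the 3 KO vehicle libraries without overlap, as those of 12.8% of all genes did in either direction, at an exact permutation p = 0.1 each, the smallest possible with 3 against 3. Npas2 overlapped through KO vehicle mouse 137, whose 6.68 CPM exceeded the 5.98 CPM of KO PFOA mouse 52. The 3 KO PFOA libraries shared 1 i5 index, which no KO vehicle library had, so that within KO the index and PFOA cannot be told apart. With the index as a covariate, estimated from the other groups, the KO values were -1.77 for Dbp, -1.39 for Per3, -1.01 for Ciart, -0.66 for Per2 and 2.11 for Npas2, and none was called. Without mouse 137 and WT vehicle mouse 122, Ciart was at -0.41 (edgeR adjusted p = 1) and Npas2 at 2 (edgeR adjusted p = 0.795). In WT, the 10 log2 fold changes ran from -0.96 (Npas2) to 0.12, and in KI from -0.36 to 0.38.
The difference between the PFOA effects in KO and WT was past an unadjusted p of 0.05 for Npas2 alone (2.24 ± 0.80, edgeR adjusted p = 0.669), among 2010 such genes. That between KI and WT was past it for none of the 10, among 1235 genes. Of all genes, 0% were called in either, with edgeR. DESeq2 called 3 and 1 genes, none a clock gene.
Over the 3 genotypes together, an unadjusted p under 0.05 was reached by Per2 (-0.55 ± 0.17, edgeR adjusted p = 0.468, exact stratified permutation p = 0.0285) and Per3 (-0.45 ± 0.17, edgeR adjusted p = 0.518, exact stratified permutation p = 0.042), neither of which was called. Per2 was at -0.34 without mice 122 and 137. Here too 0% of genes were called by edgeR, with 2228 at an unadjusted p under 0.05, and 26 were called by DESeq2, none of them a clock gene.

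KI lungs were compared with WT and with KO in the same way. No clock gene was called between KI and WT over both exposures, where 1.37% of all genes were called, and Cry2 alone passed an adjusted p of 0.2 (-0.38 ± 0.10, edgeR adjusted p = 0.0874, exact stratified permutation p = 0.01), with all 6 KI libraries below all 5 WT libraries, which were apart in either direction for 2% of all genes. Per2 (-0.54 ± 0.21), Ciart (-0.51 ± 0.24) and Npas2 (0.94 ± 0.45) had an unadjusted p under 0.05 and edgeR adjusted p of 0.343, 0.485 and 0.516. On vehicle (0.857% of all genes called) and on PFOA (0.527%) again no clock gene was called, with Cry2 at -0.40 ± 0.16 and -0.36 ± 0.15, and with Npas2 at 1.58 ± 0.54 on PFOA (edgeR adjusted p = 0.537). The Cry2 value on vehicle was -0.16 without WT vehicle mouse 122, -0.60 without mouse 107 and -0.13 in females alone. The Per2 value over exposures was -0.21 in females alone and -0.35 without mice 122 and 137. Without KI PFOA mouse 80, Npas2 was at 0.79 on PFOA and 0.62 over exposures. The KI and KO comparisons share the WT libraries. Set directly against KO, KI had positive log2 fold changes for Per1 (0.77 ± 0.18, exact stratified permutation p = 0.02), Per2 (0.58 ± 0.20), Per3 (0.45 ± 0.20, and 0.27 with the sex covariate or 0.20 in females alone) and Cry2 (0.25 ± 0.10) at an unadjusted p under 0.05, but none was called, at edgeR adjusted p of 0.643 for Per1 and 1 for the rest. That comparison called 0.00742% of all genes. Cardiac muscle marker Tnnt2 was at 2.08 ± 0.73 and Myh6 at 1.66 ± 0.78 in KI against WT. Neither was called, and the part of these markers in the clock values was not tested.

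**Figure D2:**
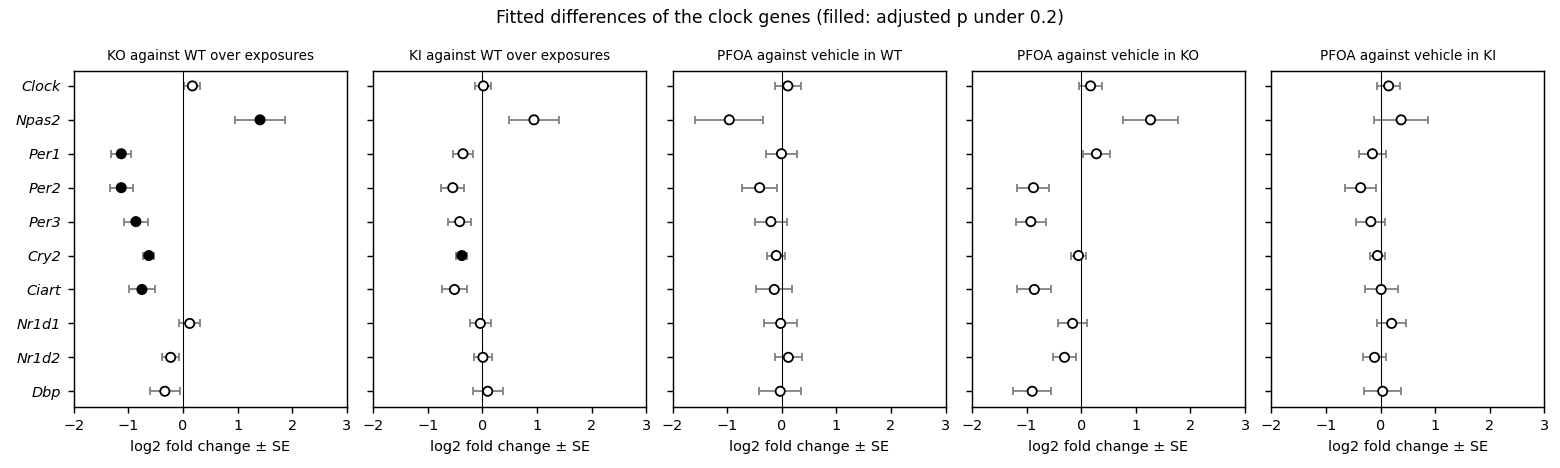
Fitted log2 fold changes (x axis, ± SE) of the 10 clock genes (y axis) in 5 comparisons, with filled symbols for an adjusted p under 0.2. The KO against WT panel holds 6 filled symbols, 5 to the left of 0 and Npas2 at 1.41 to the right, and the 3 PFOA panels hold none.

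To place each library along both arms, the centred log2 CPM of the Npas2 arm was averaged and subtracted from that of the Dbp arm, so that a high value means high Dbp-arm and low Npas2-arm mRNA. This arm difference is a description of relative mRNA levels. It is not an hour, and without the hour of harvest a shifted rhythm and an altered level at one time cannot be told apart. The genes of the Dbp arm did not all vary together over the 17 libraries. Pairs within that arm ran from Pearson's r = -0.212 (Nr1d1 with Ciart) to 0.811 (Per3 with Ciart). Pairs across the arms ran from r = -0.751 (Npas2 with Per3) to 0.161 (Nr1d1 with Clock). The arm difference was 0.32 and 0.39 in WT vehicle, 0.45, 0.82 and 0.92 in WT PFOA, -0.07, 0.31 and 0.34 in KO vehicle, -1.69, -1.13 and -0.70 in KO PFOA, -0.48, -0.14 and 0.89 in KI vehicle, and -1.35, 0.36 and 0.75 in KI PFOA. The 4 lowest libraries were the 3 KO PFOA mice and KI PFOA mouse 80. WT lungs were all on the positive side, and each KI group held libraries of both signs. The spread within KI PFOA (SD 1.12, n = 3) and KI vehicle (SD 0.71, n = 3) exceeded that within WT PFOA (SD 0.25, n = 3) and KO vehicle (SD 0.23, n = 3).
Sex was uneven along this scale. The 5 male lungs, all WT or KI, lay between 0.32 and 0.92. Both KI males (0.89 and 0.75) exceeded all 4 KI females (-1.35 to 0.36), whereas the WT females (0.39 and 0.82) lay within the WT male range. Among females, KO ran from -1.69 to 0.34 and WT from 0.39 to 0.82, without overlap, but with Ciart left out of the Dbp arm KO vehicle mouse 145 (0.45) exceeded WT vehicle mouse 107 (0.40). Within the i5 index of the KO PFOA group, its 3 libraries stood against WT PFOA mouse 56 at 0.92 and KI vehicle mouse 102 at 0.89, both male. The second index ran from -1.35 (KI PFOA) to 0.82 (WT PFOA), the third, with no KO library, from 0.32 to 0.75, and the fourth, with no WT library, from -0.48 to 0.36. The part of sex and of the index in the arm difference was not tested.

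**Figure D3:**
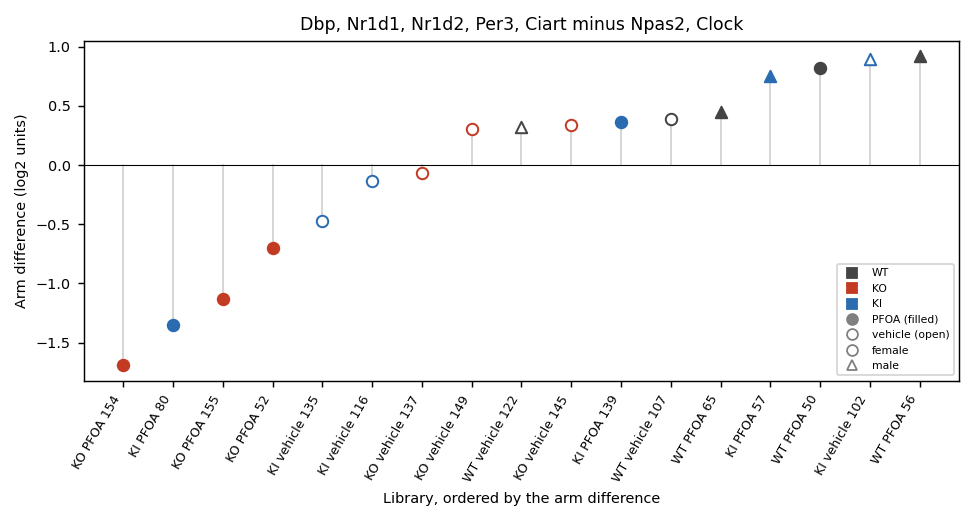
Arm difference of each library (y axis, log2 units, Dbp arm minus Npas2 arm) in ascending order (x axis), with colours for genotype, filled symbols for PFOA and triangles for males. The 3 KO PFOA libraries and 1 KI PFOA library lie at or below -0.70, and the 5 males lie at or above 0.32.

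Pairs of genes were then compared library by library. Over the 17 libraries, log2 CPM of Dbp and Npas2 ran in opposite directions (Pearson's r = -0.736, permutation p = 0.00081; Spearman's rho = -0.684, permutation p = 0.00321). After the group means were taken out the relation was as strong (r = -0.756), so that it was not only a difference between group means. Mice of some groups still differed in sex, i5 index or library quality, and the part of these was not tested. Over the libraries, r was -0.679 without the 2 farthest in Dbp and -0.782 without mice 122 and 137. Dbp and Per3 varied together (r = 0.799, permutation p = 6e-05; rho = 0.716, permutation p = 0.00149), with 0.808 for the deviations and 0.728 without the same 2 libraries. Per1 and Per2 were related over all libraries (r = 0.642, permutation p = 0.00552; rho = 0.672, permutation p = 0.00414; 0.756 without the 2 farthest in Per1) but less so within groups (0.45, adjusted permutation p = 0.098). Dbp and Nr1d1, although of the same arm, gave r = 0.304 (permutation p = 0.234; rho = 0.483, permutation p = 0.051), and Npas2 and Clock gave 0.222 (permutation p = 0.391; rho = 0.248, permutation p = 0.338) and -0.182 without the 2 farthest. With Arntl, the partner of both activators, Npas2 gave 0.796 (permutation p = 0.00015; rho = 0.73, permutation p = 0.00131; 0.653 without the 2 farthest) and Dbp gave -0.662 (permutation p = 0.00379; rho = -0.534, permutation p = 0.0289; -0.525 without the 2 farthest). These were 7 relations, and the Benjamini-Hochberg adjusted p of the 5 with an unadjusted Pearson p under 0.05 were 0.00042 to 0.00773. The adjustment covered these 7 alone, and the genes and comparisons were chosen with earlier results of these data known. The permutations moved libraries freely across groups that differ in genotype, exposure, sex and i5 index. These p are therefore descriptions and do not test a coupling of the genes. With 4 or 5 libraries per i5 index, no correlation was computed within an index. Of the 45 pairs among the 10 genes, 11 had an r above 0.5 and 9 below -0.5.

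In a search of 19191 genes averaging 1 CPM or more, the one whose log2 CPM followed Dbp most closely was Bhlhe41 (DEC2), itself a clock repressor, with r = 0.948 over the 17 libraries and 0.964 for the deviations from group means. Its level was 20.2 to 25.8 CPM in KO PFOA and 33.3 to 38.0 CPM in KO vehicle. In WT it was 33.6 and 39.8 CPM on vehicle and 30.1 to 41.7 CPM on PFOA, and in KI 24.6 to 40.1 CPM on vehicle and 21.2 to 41.9 CPM on PFOA. Next were Adamts5 (0.821), Gm6652 (0.796) and Gm37516 (0.793). The most opposite genes were Foxs1 (-0.812), Nectin1 (-0.779), Gm43061 (-0.773), Gm17195 (-0.767) and B530045E10Rik (-0.743). These r were picked as the extremes of all genes and are descriptions. The D-box factor gene Hlf ranked 9th from the top (0.713), Tef 57th and Cry1 77th, while Arntl ranked 31st from the bottom.

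**Figure D4:**
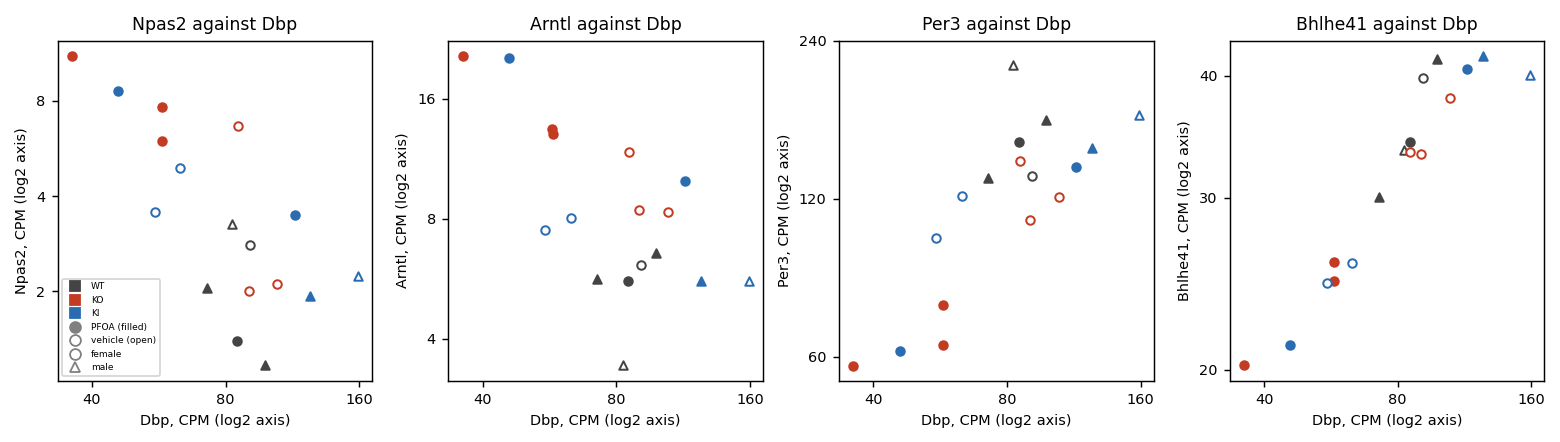
CPM of Npas2, Arntl, Per3 and Bhlhe41 (y axes) against Dbp (x axes) in the 17 libraries, all on log2 axes, with symbols by genotype, exposure and sex. Npas2 and Arntl run opposite to Dbp (r of -0.736 and -0.662) and Per3 and Bhlhe41 run with it (0.799 and 0.948), and the KO PFOA libraries lie towards the low-Dbp end of each panel.

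The other genes of the clock were read from a list of 17. Between KO and WT over both exposures, 1 was called higher, Arntl, and 0 lower. At an adjusted p under 0.2 with any fold change, 4 were lower and 1 higher. Of all genes, 2.36% were called and 5.85% had such an adjusted p, in either direction. With the exposures apart, 0 of the 17 were called on vehicle, where 1.37% of all genes were. On PFOA, 1 was called higher and 3 lower, where 1.01% of all genes were called. Arntl, which encodes BMAL1, was 3.44 and 6.13 CPM in WT vehicle, 5.58 to 6.58 CPM in WT PFOA, 8.30 to 11.8 CPM in KO vehicle and 13.02 to 20.4 CPM in KO PFOA. All 6 KO libraries exceeded all 5 WT libraries (log2 fold change 1.22 ± 0.26, edgeR adjusted p = 0.0155, exact stratified permutation p = 0.005), a call that was lost with the sex covariate (0.83, edgeR adjusted p = 0.211) and in females alone (1.04, edgeR adjusted p = 0.287), and KI libraries ran from 5.57 to 8.01 CPM on vehicle and from 5.59 to 20.2 CPM on PFOA. Cry1, the paralogue of Cry2, was at -0.89 ± 0.19 (edgeR adjusted p = 0.015), and at -0.76 in females alone (edgeR adjusted p = 0.432). The D-box activators Tef (-0.90 ± 0.15, edgeR adjusted p = 0.00177) and Hlf (-0.89 ± 0.20, edgeR adjusted p = 0.0215) were lower, where their relative Dbp did not pass the test. Cipc, an inhibitor of CLOCK, was at -0.63 ± 0.11 (edgeR adjusted p = 0.00293). Tef, Hlf and Cipc stayed under an adjusted p of 0.2 with the sex covariate and in females alone. Nfil3, the D-box repressor, was at 0.07 (edgeR adjusted p = 0.96), with a sign that turned to -0.24 with the sex covariate. For Tef and Cry1, as for Per1, no KO library reached the lowest WT library. The KO and WT libraries of 2.76% of all genes did not overlap, in either direction. With PFOA in KO, 1 of the 17 was higher and 4 were lower at an unadjusted p under 0.05. Of all genes, 9.79% had such a p in either direction. Arntl (0.74 ± 0.35) and Tef (-0.46 ± 0.19) were among these, and none of the 17 was called.

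**Figure D5:**
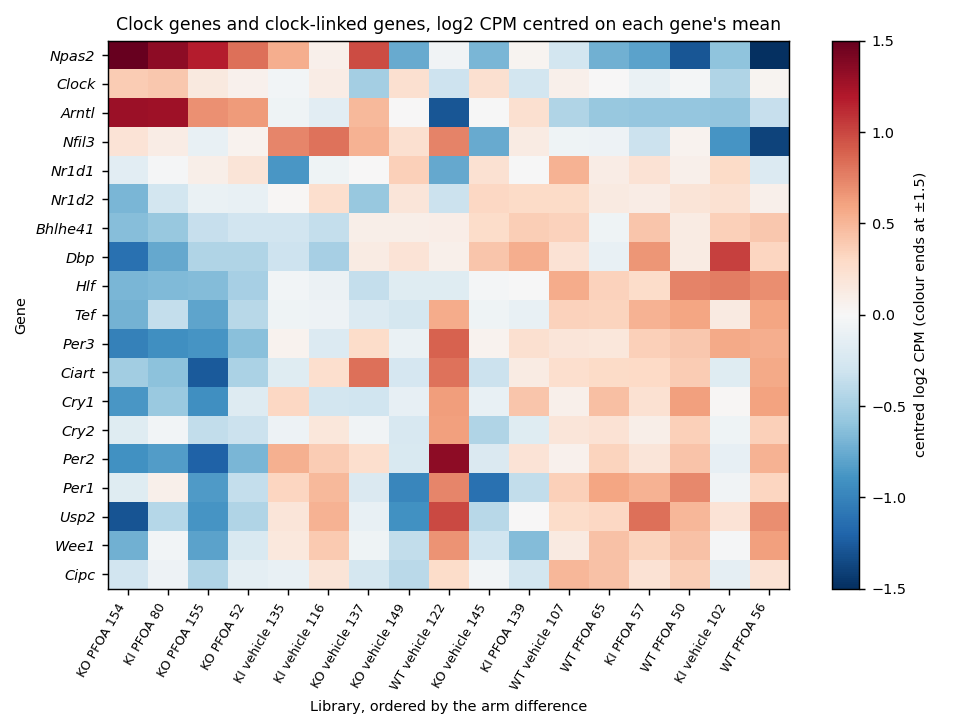
Log2 CPM centred on each gene's mean (colour, ends at ±1.5) for 19 clock and clock-linked genes (rows) in the 17 libraries, ordered by the arm difference (columns). Npas2 and Arntl are high in the KO PFOA and KI PFOA libraries at the left, where Dbp, Per3 and Hlf are low, and Nr1d1 and Clock vary less.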

How the data were processed

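Total RNA of mouse lung was sequenced from 17 libraries. The authors made the libraries with the SMARTer Stranded Total RNA-Seq Pico kit, trimmed 3′ bases of low quality, aligned the reads to mm10 with STAR 2.6 and estimated reads per gene by expectation maximization in Partek Flow. They deposited these expected counts without normalization, and 31.3% of the table's cells are not exact whole numbers. How the strand was used in counting and the annotation release are not given in the sources used here. The authors' own tests used DESeq2. A further WT vehicle sample was dropped by them for RNA quality.

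The estimated counts deposited by the authors were rounded, and genes were kept if their counts summed to 20 or more (26946 genes). They were fitted over all 17 libraries with edgeR 4.0.16 in R 4.3.3 (TMM factors, quasi-likelihood F-test), with 1 coefficient per group or, over exposures and over genotypes, an additive model of genotype and exposure. The Benjamini-Hochberg adjustment ran over every gene tested, and a call needed a change of more than 2-fold with an adjusted p below 0.2. CPM are TMM-normalized. Log2 CPM used a prior count of 2. Exact permutation tests were two-sided, over all rearrangements of libraries within each exposure or genotype, and correlations used 100000 permutations. Replicates differed by more than sampling noise (chi-square per degree of freedom at least 5.75). Pairs that held WT vehicle mouse 122 or KO vehicle mouse 137 differed most, at 43.8 to 51.2. The highest of these was the pair of WT vehicle libraries, and all other pairs were at or below 15.8. Nothing says that libraries of a group came from separate cages or litters. The SE of a fitted log2 fold change is its size divided by the square root of its F statistic. It rests on the spread estimated in the fit over all 17 libraries, not only on the groups compared. SD are over mice, and depth limits Npas2 most.

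The clock genes, the gene lists and the comparisons were chosen with earlier results of these data known. All 10 genes are given by library, with fold changes for those at an unadjusted p under 0.05. A few genes are not reported here, and the counts of the other lists leave them out. From the other lists, counts are given, with values for called genes, for up to 3 genes of smallest p and for Arntl, Cry1, Tef, Hlf, Nfil3 and Usp2. The fitting steps were tested on simulated data. The alternatives were RLE factors, no filter, filterByExpr, DESeq2 1.42.0, robust estimation, sex or i5 index as a covariate, females only, the groups compared only, other thresholds, and libraries left out. Promoter windows came from RefSeq (GRCm38.p6). Of the table's gene names, 96.7% were found once in GENCODE M21, which gave coordinates (mm10) and exon lengths. Python 3.11.15 with pandas 2.3.3, numpy 2.4.6, scipy 1.17.1 and matplotlib 3.10.9 was used.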

Additional observations from a re-analysis of the deposited data

How the results depend on the processing

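Of 41 fitted fold changes, each refitted under up to 28 alternatives (11 other settings and 17 with 1 library left out), 1143 of 1146 values kept their direction, 41 lost a call and 13 gained one. These counts are of calls, not of sizes. The fold changes were those of clock genes at an unadjusted p under 0.05 in the fit over all libraries. Those of Arntl, Cry1, Tef, Hlf, Nfil3 and Usp2 in KO against WT over exposures were added. The refits share most libraries with that fit, so this choice favoured a kept direction, and the count cannot show stability. Nr1d1, whose sign turned, was not among them. Nfil3 in KO against WT over exposures turned from 0.07 to -0.24 with sex as a covariate and was -0.12 to 0.28 when 1 library was left out, negative without WT PFOA mouse 56 and without KO PFOA mouse 154. The number of clock genes called between KO and WT on vehicle was 0 with an i5 index covariate, in females only, with the groups compared only or at an adjusted p under 0.05, 2 at an adjusted p under 0.2 with any fold change, and 0 (without WT vehicle mouse 122) to 2 (without mouse 107) when 1 library was left out. On PFOA it was 5 with RLE factors, filterByExpr or DESeq2, 6 at an adjusted p under 0.2 with any fold change, 1 with the sex covariate, 2 with the i5 index, 0 in females only, 1 at an adjusted p under 0.05, and 1 to 4 when 1 library was left out. Over exposures it was 1 with the sex covariate, with the i5 index or in females only, 6 at an adjusted p under 0.2 with any fold change, and 2 to 4 when 1 library was left out. Between KI and WT it was 1 over exposures at an adjusted p under 0.2, and 0 to 1 on vehicle (1, Per2, without WT vehicle mouse 107). The mean arm difference of WT vehicle was 0.711 with Arntl in place of Clock, 0.438 without Nr1d1, 0.412 without Nr1d2, 0.274 without Per3 and 0.278 without Ciart. With Arntl in place of Clock, that of KI PFOA went from -0.08 to -0.23, that of KI vehicle from 0.09 to 0.16, and that of KO vehicle from 0.19 to 0.11, with KO vehicle mouse 137 at -0.56, and this mouse turned positive (0.11) without Nr1d2. The means of KI vehicle without Nr1d1 and without Nr1d2 were 0.15 and 0.06, and that of KI PFOA without Per3 was -0.05. The correlation of Per1 and Per2 was 0.45 for deviations from group means, and that of Npas2 and Clock was 0.458 without mice 122 and 137. The cause of these changes was not tested. No paired analysis was possible because each mouse has a number of its own, shared by no other group. With 2 or 3 mice per group and 8 to 104 reads of Npas2 per library, small differences were not detectable.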

Other observations

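Genes known to follow the clock in many tissues were read from a list of 8. Between KO and WT over both exposures, 2 were called lower and 5 were lower at an adjusted p under 0.2, with none higher. Of all genes, 2.36% were called and 5.85% had such an adjusted p, in either direction. Usp2, a deubiquitinase under direct clock control, was 23.6 to 38.7 CPM in the WT libraries and 7.88 to 17.97 CPM in the KO libraries. These did not overlap, nor did those of 2.76% of all genes. Its log2 fold change was -1.25 ± 0.21 (edgeR adjusted p = 0.00205). Wee1, a cell cycle kinase gene with E-boxes, was at -0.90 ± 0.17 (edgeR adjusted p = 0.00492), and Tsc22d3 (GILZ), which is also a glucocorticoid target, was called at -1.13 ± 0.28 (edgeR adjusted p = 0.0417). In females alone Usp2 stayed called (-1.05), while Wee1 (-0.71, edgeR adjusted p = 0.285) and Tsc22d3 (-1.27, edgeR adjusted p = 0.295) did not pass an adjusted p of 0.2.

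A list of 10 glucocorticoid-responsive genes was read beside Per1, since this hormone also induces Per1. Of these, 4 were called lower in KO over both exposures, where 2.36% of all genes were called. An unadjusted p under 0.05 was held by 8, all lower, where 12.9% of all genes had such a p in either direction. With the i5 index as a covariate none of the 4 was called (Fkbp5 -0.56, Ddit4 -1.03, Zbtb16 -0.53, Tsc22d3 -0.94). Fkbp5 was 88.5 to 158 CPM in WT and 29.2 to 59.4 CPM in KO (-1.52 ± 0.41, edgeR adjusted p = 0.0571). Its libraries did not overlap, nor did those of 2.76% of all genes. Ddit4 was at -1.5 ± 0.32 (edgeR adjusted p = 0.0141) and Zbtb16 at -1.04 ± 0.31 (edgeR adjusted p = 0.0959). In females alone Fkbp5 and Ddit4 stayed called, while Zbtb16 (-1.02, edgeR adjusted p = 0.499) and Tsc22d3 were not. With the exposures apart, 2 of the 10 were called lower in KO on vehicle and 0 on PFOA, where 1.37% and 1.01% of all genes were called. An unadjusted p under 0.05 was held by 7 on vehicle and 4 on PFOA, all lower, and by 14.2% and 7.65% of all genes. In KO with PFOA, 3 of the 10 had an unadjusted p under 0.05, as did 9.79% of all genes in either direction. These 3 were all higher, among them Tsc22d3 (0.82 ± 0.36) and Ddit4 (0.96 ± 0.43), and none of the 10 was called. Their part in the Per1 values was not tested.

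In a list of 8 temperature-responsive genes, none was called in any of these comparisons. With PFOA over the 3 genotypes, 4 had an unadjusted p under 0.05, all lower, where 8.27% of all genes had such a p in either direction. The 4 were led by Hspa1b (-1.60 ± 0.44, edgeR adjusted p = 0.405) and Hspa1a (-1.55 ± 0.39, edgeR adjusted p = 0.394), 2 near-identical genes whose reads the counting may split. Hspa1a ran from 8.91 to 118 CPM within KI vehicle alone. Of 8 immediate early genes, Ier2 alone passed an adjusted p of 0.2 in KO against WT over exposures (-0.51 ± 0.16, edgeR adjusted p = 0.127), where 5.85% of all genes did. None of the 8 was called.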
